A study of Homo sapiens with 29 samples.

Results

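Oxidative phosphorylation (OXPHOS) is run by protein complexes of the inner mitochondrial membrane. Complexes I and II pass electrons to ubiquinone, complex III passes them on to cytochrome c, and complex IV hands them to oxygen. The protons pumped on the way drive ATP synthase, complex V. A small set of subunits is encoded by mitochondrial DNA, and all others come from nuclear genes, which are the genes described here. Members were chosen by symbol alone, as protein-coding nuclear genes whose symbols start with NDUF, SDHA to SDHD, UQCR, COX4 to COX8 or ATP5 (F1, M or P), with CYC1 and CYCS added. The rule found 99 genes of 35580 genes in the table, and 90 of them had a mean of at least 10 TPM over all libraries and were tested, among 9241 such genes.

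PC9, a line of EGFR-mutant lung adenocarcinoma, was sequenced as 10 lines. PAR was the parental line and KO was an AXL knockout made from it with CRISPR-Cas9. The 8 others were KO cells carrying a lentiviral AXL insert, either wild type (WT), kinase dead (KD) or with one tyrosine replaced by phenylalanine (Y634F, Y643F, Y698F, Y726F, Y750F and Y821F). These 9 lines other than PAR thus all carried the knockout, only a minority of the cells of a transduced line expressed AXL, and these lines had less AXL at the surface than PAR but at least as much in total. Each line was left untreated (UT), given 1 μM of the EGFR inhibitor erlotinib (E), or given the inhibitor together with the AXL-activating antibody AF154 at 300 ng/mL (EA), for 24 h. There were 10 UT, 10 E and 9 EA libraries, 1 per line and treatment, and the data hold no EA library of KO. The lines therefore served as the replicates of a treatment. In treatment comparisons, p-values set the change within lines against how far that change varied between lines.

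The values are in TPM, a length-corrected share of the transcripts of a library, which has the same total in every library and keeps no record of read depth, so the counting error is unknown. A TPM value is a share of the RNA, so a fall in RNA per cell and a smaller share of the cells cannot be told apart, and a change in total RNA is not seen. AXL was lowest in KO, at 92.4 TPM in UT and 79.3 TPM in E, and at least 217 TPM in the 27 other libraries. The knockout did not remove the transcript, so this checks the labels only in part. The epithelial keratins KRT8 and KRT18 were at 1249 TPM or more and at 1094 TPM or more in every library. The T cell gene CD3E was at 0 in all of them, COL3A1 reached at most 0.062 TPM and PTPRC at most 1.47 TPM. The endothelial genes PECAM1 and VWF reached at most 9.6 and 0.755 TPM. ACTA2 and PDGFRB, genes of smooth muscle and fibroblasts, reached at most 4.34 and 3.54 TPM. COL1A1, a collagen gene of fibroblasts, lay between 15.3 and 70.9 TPM. Of the lung lineage genes, NKX2-1 reached at most 0.354 TPM, SFTPB at most 1.09 TPM and NAPSA at most 5.32 TPM, with a median of 1.96 TPM, so these were low or near absent in cells labelled as lung epithelium.

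Many nuclear OXPHOS genes have binding sites for the factor NRF1 or for ETS factors such as GABPA in their promoters, so the promoters of members were searched for the letters of 2 short cores on both strands, GCGCATGC for NRF1 and CCGGAAGT for ETS factors. Promoters were the 300 bases around the RefSeq start (GRCh38.p14), with 250 before it and 50 after it, and 80 of the members had one. The NRF1 core was in 16 of the 80 (20.0%), against 894 of 27305 promoters of the whole table (3.27%) and 443 of the 7469 promoters found for genes that were tested (5.93%). The ETS core was in 10 of the 80 (12.5%), against 4.44% of the whole table and 10.3% of the tested genes. The 4 stretches printed here hold the NRF1 core upstream of the start, in the 2 members with the largest fall and the 2 with the largest rise under erlotinib among the named members with such a match. Each is written 5′ to 3′ on the strand of the gene with the core in capitals, as GCGCATGC or its reverse complement.
CYCS: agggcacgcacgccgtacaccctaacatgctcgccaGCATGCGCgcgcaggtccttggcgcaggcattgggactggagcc
SDHB: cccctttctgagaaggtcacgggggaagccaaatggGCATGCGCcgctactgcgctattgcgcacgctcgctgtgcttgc
NDUFB4: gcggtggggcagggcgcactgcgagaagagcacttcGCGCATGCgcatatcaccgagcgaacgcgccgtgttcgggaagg
COX5B: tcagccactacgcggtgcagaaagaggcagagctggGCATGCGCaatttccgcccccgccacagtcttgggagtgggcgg

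They lie at chr7:25125386-25125465 (minus strand) for CYCS, chr1:17054189-17054268 (minus strand) for SDHB, chr3:120596141-120596220 (plus strand) for NDUFB4 and chr2:97645890-97645969 (plus strand) for COX5B. In NDUFB4 the core overlaps a match on the opposite strand. As shown next, CYCS and SDHB fell with erlotinib while NDUFB4 and COX5B rose. The NRF1 core was in 11 of the 47 members with a promoter that fell, in 3 of the 10 that rose and in 2 of the 19 that did not pass the test. The ETS core was in 6, 2 and 2 of the same promoters. A match is a run of letters and not a measured binding site.

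Erlotinib lowered the RNA of most members. Of the 90 tested, 55 fell and 14 rose between UT and E, and 21 did not pass the test (limma, cell line as a block, adjusted p under 0.05 over all genes). Of all genes tested, 42.6% were called lower and 36.6% were called higher in E. The median log2 change of the members was -0.19, and that of all genes was -0.04. The 6 largest falls among members lower in every line were those of NDUFAF4, NDUFAF2 and NDUFAF8 (complex I assembly factors), CYCS (cytochrome c), CYC1 (cytochrome c1) and ATP5MC1 (a c subunit gene of ATP synthase). No member changed as strongly upward, and the largest rise was 0.33 on the log2 scale.

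**Figure D1:**
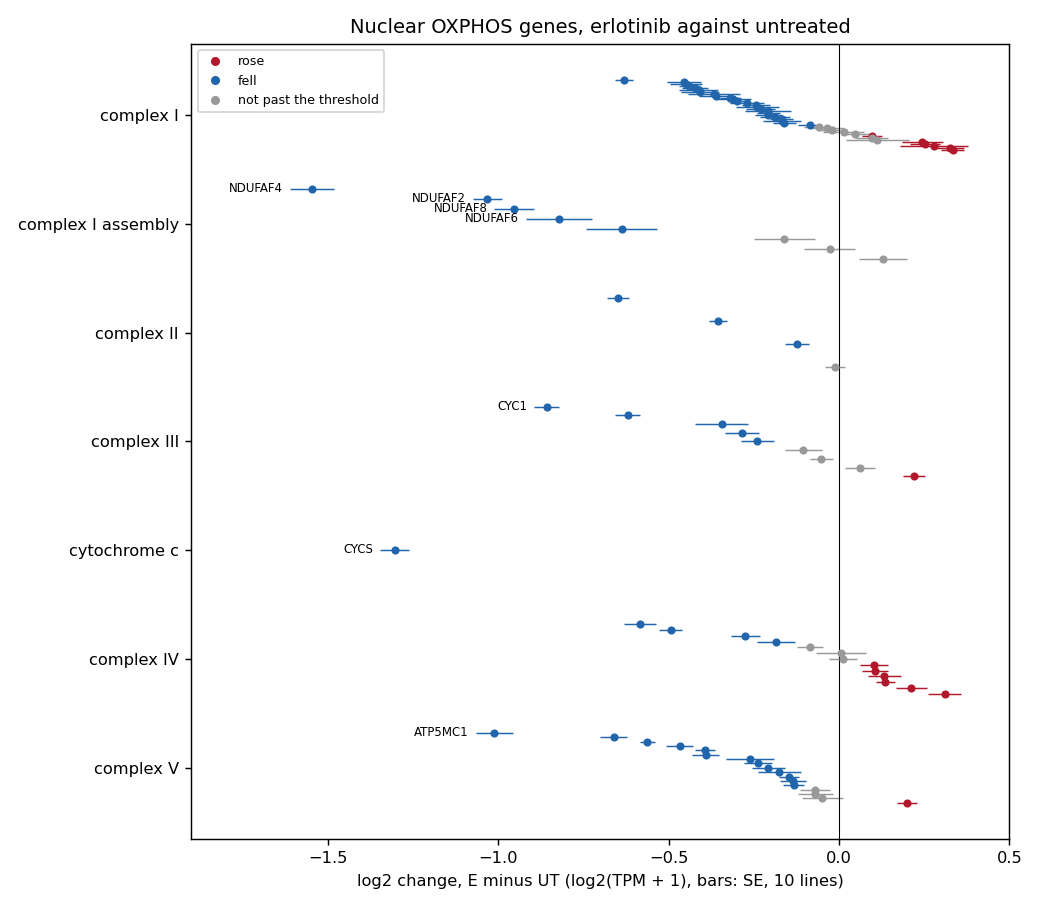
Log2 change from UT to E (x axis, log2(TPM + 1) scale) of each tested member other than the readthrough NDUFC2-KCTD14, grouped by complex (y axis), with SE bars over 10 lines. Blue points fell, red points rose and grey points did not pass the threshold. NDUFAF4 lies farthest to the left at -1.55, and the points of complex IV fall on both sides of 0.

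In every library of E, 21 members were below every library of UT, where 21.6% of all genes were, and 2 members, NDUFB4 among them, were above every library of UT, where 14.9% of all genes were. The share of the 21 among the 90 members was close to that background. The sum over all members lay between 17094 TPM (PAR) and 21747 TPM (Y750F) in UT, with a median of 20384 TPM, and between 16644 TPM (PAR) and 18438 TPM (WT) in E, with a median of 17895 TPM. It was lower in E in 9 of the 10 lines, and WT was the exception. Members thus held 1.71% to 2.17% of the RNA in UT and 1.66% to 1.84% in E, and the groups overlapped only through the PAR and WT libraries of UT.

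Complex I assembly factors help to put complex I together and are not part of the finished enzyme. Of the 8 members that carry this role, 5 fell and 3 did not pass the test, with a median log2 change of -0.73, where 42.6% of all genes fell and 36.6% rose. NDUFAF4 (ENSG00000123545, chromosome 6 from 96889313 to 96897881, GENCODE release 29 on GRCh38) fell the most of all members. Its TPM lay between 36.4 (PAR) and 59.5 (Y750F) in UT, with a median of 48.6, and between 13.7 (Y634F) and 19.5 (Y698F) in E, with a median of 15.5. The groups did not overlap, and the log2 change was -1.55 ± 0.06 (SE, 10 lines, limma adjusted p = 1.5e-11), from -1.91 in KD to -1.25 in Y698F.

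NDUFAF2, a chaperone of late complex I assembly, ran from 62.6 to 85.7 TPM in UT and from 29.9 to 42.0 TPM in E, again without overlap, and fell by 1.03 on the log2 scale (SE 0.04). NDUFAF8 ran from 120 to 302 TPM in UT and from 73.6 to 154 TPM in E and fell by 0.95 (SE 0.06), in 10 of 10 lines. Its UT and E libraries overlapped because PAR held only 120 TPM in UT, against at least 235 TPM in the other lines. NDUFAF6 fell by 0.82 (SE 0.10) and NDUFAF5 by 0.64 (SE 0.10). NDUFAF1, NDUFAF3 and NDUFAF7 did not pass the test, with log2 changes of 0.13, -0.03 and -0.16.

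Of the 37 tested subunits of complex I itself, 24 fell, 6 rose and 7 did not pass the test, with a median of -0.21, where 42.6% of all genes fell and 36.6% rose. NDUFS1, the largest iron-sulfur subunit, fell by 0.36 (SE 0.05) and NDUFV1, which binds NADH, by 0.16 (SE 0.03).

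NDUFAB1, an accessory subunit and the acyl carrier protein of the mitochondrion, fell by 0.63 (SE 0.03), in 10 of 10 lines. NDUFB4 (ENSG00000065518, chromosome 3 from 120596309 to 120602500), a membrane-arm subunit, ran from 279 (PAR) to 390 TPM (KO) in UT and from 396 (Y698F) to 464 TPM (KD) in E. It rose in 10 of 10 lines, by 0.33 ± 0.03 (SE, limma adjusted p = 2.9e-07). NDUFA1, NDUFA13, NDUFA2 and NDUFS5 rose as well, in 7 to 9 lines. NDUFA1 was the least even of them, with a log2 change of 1.04 in WT and -0.25 in Y750F, and without WT its change was 0.19 (adjusted p = 0.038). Its call was lost with no filter (adjusted p = 0.084). The call of NDUFS5 was lost without the line as a block (adjusted p = 0.11). It was the most abundant member, with a mean of 846 TPM over the 29 libraries.

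**Figure D2:**
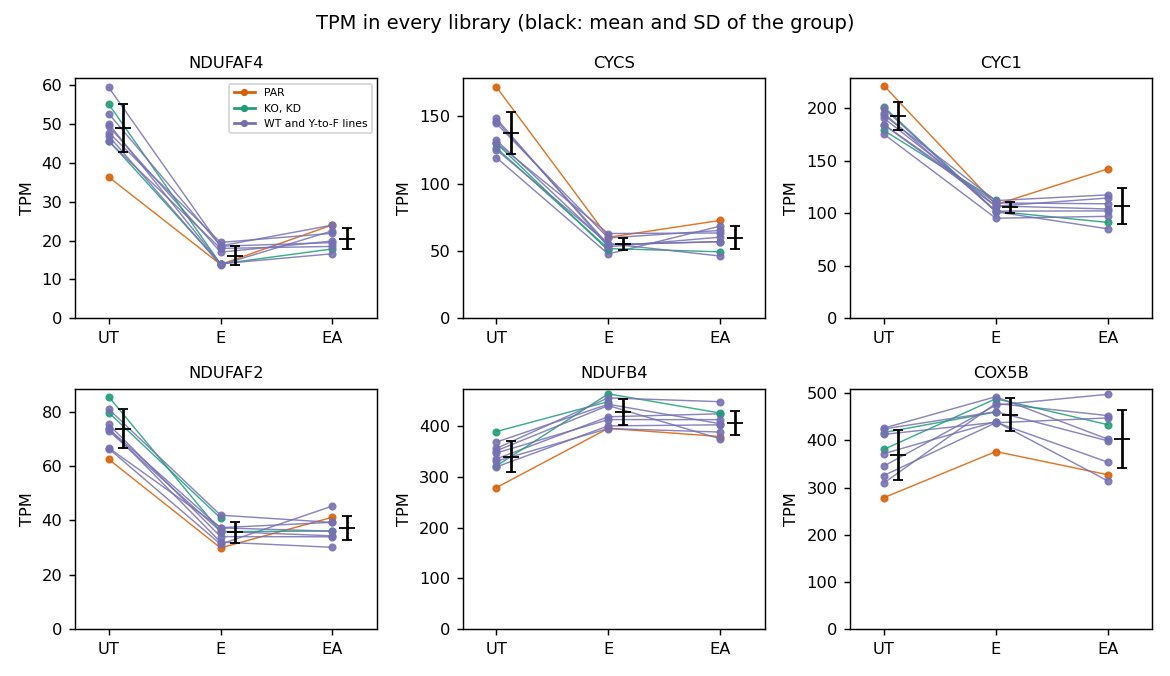
TPM (y axis, from 0) of 6 members in each library of UT, E and EA (x axis), with the libraries of a line joined and the mean and SD of each group in black. NDUFAF4, CYCS, CYC1 and NDUFAF2 have every E library below every UT library, NDUFB4 has every E library above, and COX5B is higher in E than in UT in every line although the groups overlap.

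Complex II, or succinate dehydrogenase, belongs to the TCA cycle as well as to the respiratory chain. SDHB, its iron-sulfur subunit, ran from 86.1 to 114 TPM in UT and from 55.3 to 75.3 TPM in E and fell by 0.65 (SE 0.03). SDHA, the flavoprotein, fell by 0.35 (SE 0.03) and the membrane anchor SDHD by 0.12 (SE 0.03), a call that was lost with centred medians (adjusted p = 0.076) and with quantile normalization (adjusted p = 0.35). The other anchor, SDHC, had a log2 change of -0.01 (SE 0.03). Values of SDHA are less certain, since its pseudogene copy SDHAP1 held 40.7 to 63.6 TPM and reads may be split between them.

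Of the 9 tested members of complex III, 5 fell and 1 rose, where 42.6% of all genes fell and 36.6% rose. CYC1, or cytochrome c1, ran from 175 to 221 TPM in UT and from 95.2 to 112 TPM in E and fell by 0.86 (SE 0.04), with no overlap. UQCRFS1, the Rieske iron-sulfur protein, fell by 0.62 (SE 0.04), beside a pseudogene copy, UQCRFS1P1, at 6.79 to 22.4 TPM. UQCRH, the hinge protein near cytochrome c1, fell by 0.28 (SE 0.05) and UQCRB rose by 0.22 (SE 0.03). UQCRC1, a core protein, did not pass the test at -0.05 (SE 0.03).

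CYCS (ENSG00000172115, chromosome 7 from 25120091 to 25125361) encodes cytochrome c, the mobile electron carrier that also takes part in apoptosis when released. It lay between 119 (WT) and 172 TPM (PAR) in UT, with a median of 131 TPM, and between 47.7 (WT) and 62.9 TPM (Y643F) in E, with a median of 54.6 TPM. The lowest UT library was thus well above the highest E library. The log2 change was -1.30 ± 0.04 (SE, limma adjusted p = 1.2e-12), between -1.50 in PAR and -1.04 in Y643F.

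Of the 13 tested members of complex IV, cytochrome c oxidase, 4 fell and 6 rose, with a median of 0.01, where 42.6% of all genes fell and 36.6% rose. COX8A ran from 896 to 1081 TPM in UT and from 581 to 751 TPM in E and fell by 0.58 (SE 0.05). COX5A, a matrix subunit, fell by 0.49 (SE 0.03), whereas COX5B, also on the matrix side, rose by 0.31 (SE 0.05). COX5B overlapped between the groups, from 279 to 426 TPM in UT and from 376 to 492.6 TPM in E, but was higher in E in 10 of 10 lines. COX4I1 and COX6C rose by 0.14 (SE 0.03) and 0.21 (SE 0.05), and COX7A2L, which links complexes III and IV, by 0.10 (SE 0.04). The call of COX7A2L was lost when KO, KD, Y634F, Y643F or Y821F was left out in turn, with adjusted p from 0.074 to 0.094, in the 8 lines without both KD and KO (adjusted p = 0.15), without the line as a block (adjusted p = 0.082) and with no filter (adjusted p = 0.072). COX6A1 and COX7A2 did not pass the test, at -0.09 and 0.01. NDUFA4, first described as part of complex I and counted here with complex IV, fell by 0.27 (SE 0.04).

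Of the tissue-restricted forms of complex IV subunits, COX4I2 was listed at 0 in all libraries. COX6A2 and COX8C, the next least abundant members, averaged 0.046 and 0.088 TPM. COX7A1, the heart and muscle form, averaged 4.35 TPM and was highest in PAR in UT, at 13.1 TPM, against at most 5.71 TPM in the other lines. NDUFA4L2, a relative of NDUFA4 known to be induced by hypoxia, averaged 2.97 TPM. COX7B2, known mainly from testis, was well above these and averaged 28.4 TPM, and its log2 change was 0.01 (SE 0.07).

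Of the 17 tested members of complex V, 13 fell, 1 rose and 3 did not pass the test, with a median of -0.21, where 42.6% of all genes fell and 36.6% rose. In PAR alone the median of these genes was 0.03, and 9 of the 17 had a higher value in E. Of the 5 genes of the catalytic F1 head, 4 fell. ATP5F1B, its catalytic beta subunit, fell by 0.56 (SE 0.02) and ATP5F1A, the alpha subunit, by 0.39 (SE 0.03), both in 10 of 10 lines. ATP5PO, in the stalk that holds the head, fell by 0.15 (SE 0.03). ATP5MF, a membrane subunit and the third most abundant member, fell by 0.17 (SE 0.06), and that call was lost with centred medians (adjusted p = 0.14), with quantile normalization (adjusted p = 0.14), with no filter (adjusted p = 0.079), in the 8 lines without KD and KO (adjusted p = 0.10) and without Y643F or Y750F (adjusted p = 0.052 for each).

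The genes ATP5MC1, ATP5MC2 and ATP5MC3 encode the same mature c subunit, which forms the rotating ring, with different import signals. ATP5MC1 ran from 78.8 (PAR) to 144 TPM (Y750F) in UT and from 44.3 (PAR) to 66.5 TPM (Y821F) in E and fell by 1.01 (SE 0.06, limma adjusted p = 2.6e-10). ATP5MC3 ran from 380 to 528 TPM in UT and from 245 to 309 TPM in E and fell by 0.66 (SE 0.04). ATP5MC2 rose by 0.20 (SE 0.03), in 10 of 10 lines, with values from 191 to 258 TPM in UT and from 226 to 300.2 TPM in E. The share of ATP5MC2 in the summed TPM of these genes was 26.5% to 32.3% in UT and 41.5% to 46.0% in E, without overlap. Their sum fell from 814 ± 74.1 TPM to 621 ± 46.5 TPM (SD, 10 lines), in 10 of 10 lines.

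**Figure D3:**
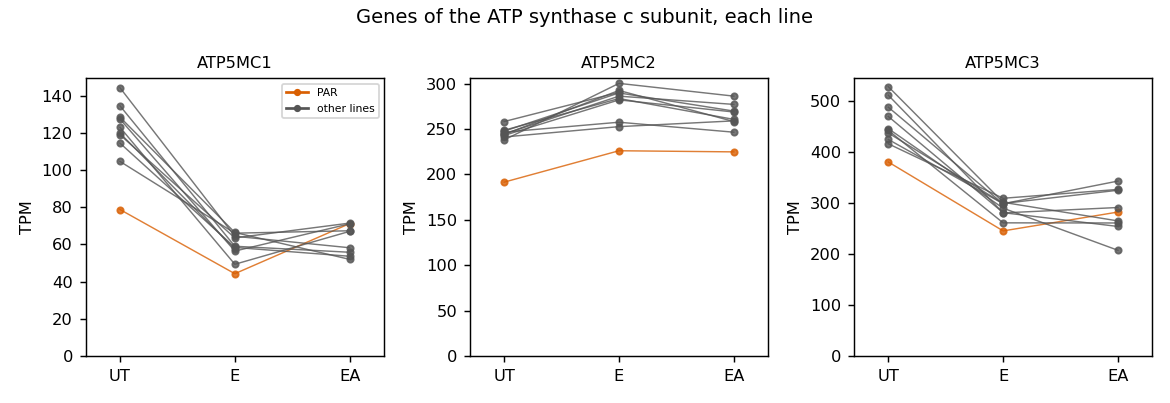
TPM (y axis, from 0) of the genes that encode the ATP synthase c subunit in each line under UT, E and EA (x axis), with PAR in orange. ATP5MC1 and ATP5MC3 lie lower in every line under E than under UT, and ATP5MC2 lies higher in every line.

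The readthrough genes and near-identical copies are uncertain, because their reads can be split with a neighbour or a parent gene. NDUFC2-KCTD14 averaged 16.1 TPM and did not pass the test, ATP5MF-PTCD1 averaged 6.91 TPM, and UQCRHL and ATP5MGL averaged 0.384 and 0.306 TPM.

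The lines differed in how far their members moved. The median change of the 90 members from UT to E was -0.06 in PAR and -0.04 in WT, and lay between -0.31 (Y750F) and -0.14 (Y726F) in the 8 other lines. The median over all genes was -0.16 in PAR and between -0.06 and 0.02 in the others, so that the members of PAR stood above the typical gene of their own library pair, as did those of WT by a small margin. With E, mitochondrially encoded RNA rose from 14.4% to 17.4% of all TPM in PAR, where the E libraries of the other lines held 12.3% to 14.2%. In UT, WT held 14.2%, against 11.4% to 13.5% in the 8 other knockout-derived lines. Its member sum in UT was 18267 TPM, against at least 19414 TPM in those 8 lines. In WT, members whose most abundant transcript has at most 500 bases had a median change of 0.13, and longer members -0.05. For all genes these medians in WT were 0.11 and -0.07. The part of these features in the result was not tested. With 1 library per line and treatment, differences between single lines have no replicate error.

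**Figure D4:**
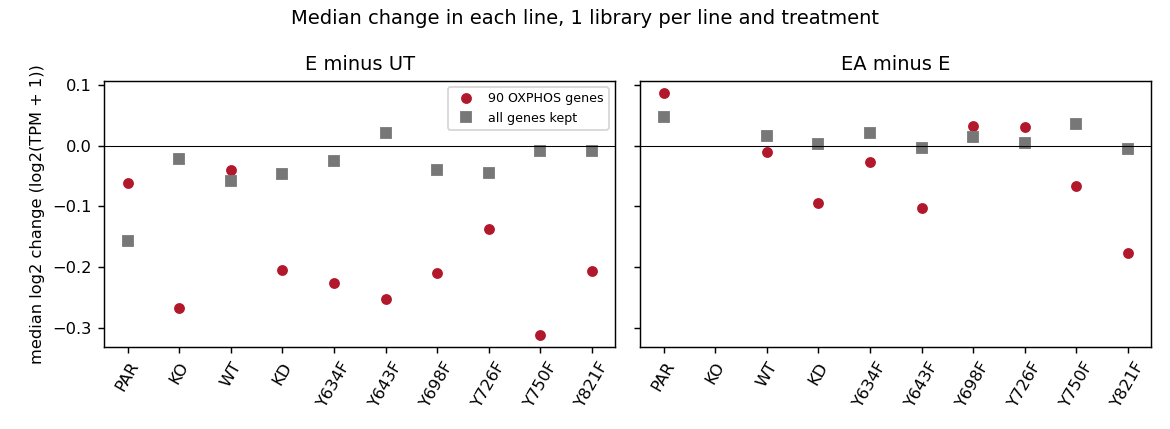
Median log2 change (y axis, log2(TPM + 1) scale) in each line (x axis) from UT to E on the left and from E to EA on the right, for the 90 members (red circles) and all genes tested (grey squares). From UT to E the members lie below all genes in each line but PAR and WT, and from E to EA the medians of the members run from -0.18 in Y821F to 0.09 in PAR.

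The AXL-activating antibody on top of erlotinib moved no member past the threshold. In the 8 lines left once KD and KO were set aside, 0 of 90 members were called higher or lower in EA than in E by limma, and 20 had an unadjusted p under 0.05 (5 of them higher in EA, 15 lower). Of all genes, 2.02% were called higher and 0.509% lower in EA, and 1932 of the 9241 had an unadjusted p under 0.05 (1174 higher, 758 lower). The calls over all genes, 187 higher and 47 lower, depended on the processing. They were 21 and 1 with no filter, 151 and 86 with centred medians and 295 and 66 with protein-coding transcripts alone. The members' median was -0.05 and that of all genes 0.02.

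NDUFAF4 and SDHB were the members with the lowest unadjusted p, and both were higher in EA in 8 of 8 lines. NDUFAF4 differed by 0.31 (SE 0.08, limma adjusted p = 0.073), from 0.04 in Y643F to 0.75 in PAR, and by 0.33 in KD, where there is no replicate. With EA it ran from 16.6 (Y726F) to 24.0 TPM (PAR), which overlaps E and lies below every UT library. SDHB differed by 0.16 (SE 0.04, adjusted p = 0.073), and by -0.09 in KD. When mitochondrial genes were left out and the libraries rescaled, SDHB passed (adjusted p = 0.049). CYCS and ATP5MC1 differed by 0.12 (SE 0.07) and 0.13 (SE 0.10), with lines on both sides of 0.

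The members lower in EA included NDUFA1, at -0.46 (SE 0.14, adjusted p = 0.10), and COX5B and NDUFB1, at -0.18 (SE 0.06) and -0.21 (SE 0.06). NDUFA1 ran from 189 TPM (Y821F) to 617 TPM (Y726F) in EA and from 457 to 595 TPM in E, so the EA libraries spread far more. Y821F moved most, by -1.47 on the log2 scale, and without it the difference was -0.32. The EA library of Y821F had the lowest member sum, at 14226 TPM, and the highest share of mitochondrially encoded RNA, at 17.4%. Its median change from E was -0.34 for the 8 members whose most abundant transcript has at most 500 bases and -0.16 for the 82 longer members, and -0.19 and -0.00 for all genes in the same classes. Y643F stood next to it. NDUFA1 was at 509 TPM in E and 263 TPM in EA there, the EA member sum was the second lowest at 15750 TPM, and the median change was -0.25 for the short members and -0.08 for the longer ones, beside -0.13 and -0.00 for all genes. Without Y643F the difference of NDUFA1 was -0.39. The part of these features in the result was not tested. With each line left out in turn, the median of the members ran from -0.05 to -0.01, the last without Y821F.

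Between UT and EA in the same 8 lines, 52 members were lower and 3 higher, where 37.6% of all genes were lower and 33.1% higher. This comparison shares its UT and EA libraries with the others, so it is no independent support for them. NDUFB4 and ATP5MC2 were among the 3 higher members, at 0.27 and 0.13. CYCS and NDUFAF4 were the lowest, both at -1.18 (SE 0.06 and 0.10), followed by NDUFAF2 at -0.92, NDUFAF8 at -0.89, ATP5MC1 at -0.88 and CYC1 at -0.83, each in 8 of 8 lines. Under quantile normalization 42 members were lower and 8 higher, where 3273 of all 9241 genes were lower and 3277 higher.

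PAR differed from the knockout-derived lines in many genes of the whole table, members among them. Over all treatments, 10 members were higher and 34 lower in PAR than in the mean of the 9 other lines, with limma, where 18.2% of all genes were higher and 27.8% lower. Taking both directions together, the share of members that differed was close to that of all genes. The p-values rest on 1 parental line seen in 3 libraries. With mitochondrial genes left out and the libraries rescaled, 13 members were higher and 25 lower. The share of lower members was then close to the 27.8% of all genes in the main fit. The shares of all genes under that rescaling are not given here. Mitochondrially encoded RNA was 14.4% of TPM in PAR in UT, against 11.4% to 14.2% in the other lines. Complex I, with 37 of the 90 tested members, held 17 of the 34 lower ones, and 30 of those 37 members were accessory subunits, which held 15 of the 17.

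NDUFB1, a small membrane-arm subunit of complex I, was at 38.7, 47.4 and 40.2 TPM in PAR in UT, E and EA. The other lines lay between 53.7 and 97.2 TPM in UT, between 64.5 and 102 TPM in E and between 53.8 and 93.4 TPM in EA, so PAR was lowest under each treatment, with a log2 difference of -0.80 (SE 0.12, adjusted p = 1.5e-05). NDUFB6, another membrane-arm subunit, was at 24.3 TPM in PAR in UT and at 36.8 TPM or more in the others, with a difference of -0.62 (SE 0.07). ATP5PD, a stalk subunit of ATP synthase, was at 327 TPM in PAR and at 472 to 523 TPM in the others in UT, with a difference of -0.41 (SE 0.05).

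NDUFAF6 and NDUFA4 differed in the other direction. NDUFAF6 was at 29.9, 18.0 and 15.7 TPM in PAR in UT, E and EA and at most 24.5, 14.2 and 12.5 TPM in the other lines, with a difference of 0.64 (SE 0.13). NDUFA4 was at 66.4, 61.7 and 68.7 TPM in PAR and at most 61.0, 50.7 and 53.2 TPM in the others, with a difference of 0.43 (SE 0.06).

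**Figure D5:**
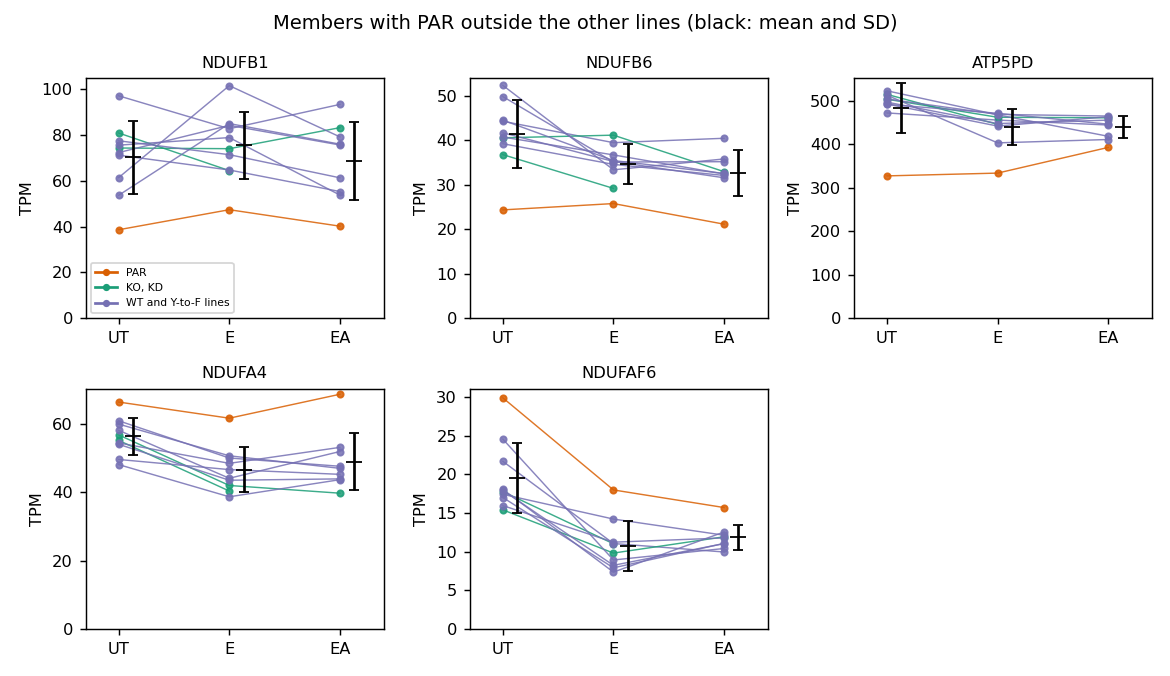
TPM (y axis, from 0) of 5 members in each line under UT, E and EA (x axis), with PAR in orange, KO and KD in green, the other lines in purple and the mean and SD of each group in black. PAR lies below every other line in NDUFB1, NDUFB6 and ATP5PD and above every other line in NDUFA4 and NDUFAF6 under each treatment, with 9 other lines in UT and E and 8 in EA.

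Among the 9 knockout-derived lines, which differ in the AXL insert they carry, 0 members passed the limma F test, where 2.75% of all genes did. An unadjusted p under 0.05 was found for 4 members and 1689 of all genes. The lines were compared over the treatments, with treatment as a term. The error behind these p-values thus came from libraries of a line under different treatments, not from repeats of a treatment.

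The members that followed the mean of the other 89 most closely over the 29 libraries were ATP5MC3 (Pearson r = 0.97), NDUFAF8 (r = 0.93) and NDUFA8 (r = 0.92), a complex I subunit with a twin cysteine fold. The median r was 0.66, and 10 members had an r below 0, NDUFB4 (r = -0.53) among them. These values describe libraries that share lines and treatments and carry no test.

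Related mitochondrial gene lists were counted in the same fit of UT against E, in which 42.6% of all genes fell and 36.6% rose. Of the 13 subunits encoded by mitochondrial DNA, 6 rose and 2 fell, with a median of 0.05. MT-ND6 rose by 0.25 (SE 0.04) and MT-CO1 by 0.25 (SE 0.04), while MT-ND2 and MT-ATP8 fell by 0.12 (SE 0.03) and 0.11 (SE 0.03), the last overlapping MT-ATP6. The nuclear subunits had a lower median than the mitochondrial ones, and that difference was not tested.

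Of 32 tested assembly factors outside the symbol rule, 23 fell and 2 rose, with a median of -0.34, against 42.6% and 36.6% of all genes. UQCC3, for complex III, fell by 0.86 (SE 0.06) and FOXRED1, for complex I, by 0.82 (SE 0.09). The complex IV factors SURF1 and COX11 rose by 0.63 (SE 0.06) and 0.18 (SE 0.06). Of 11 tested transcriptional regulators, 6 fell and 0 rose. TFAM, which packages and transcribes mitochondrial DNA, went from 96.6 ± 9.16 TPM to 41.4 ± 4.70 TPM (SD, 10 lines) and fell by 1.21 (SE 0.04), and the coactivator PPRC1 fell by 1.19 (SE 0.05).

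Of 77 tested genes of the mitochondrial ribosome, 67 fell and 3 rose, with a median of -0.47, against the same 42.6% and 36.6% of all genes. MRPS25 fell by 1.14 (SE 0.06) and MRPL12 by 1.10 (SE 0.04), and MRPL10 and MRPL52 rose by 0.32 (SE 0.05) and 0.31 (SE 0.05). Of 17 TCA cycle genes, 15 fell and 1 rose. IDH3A, a subunit of isocitrate dehydrogenase, fell by 1.05 (SE 0.06), DLAT of pyruvate dehydrogenase fell by 0.997 (SE 0.06), and PDHB rose by 0.08 (SE 0.04).

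Of 11 tested carriers and channels, 7 fell and 1 rose, and of all genes 42.6% fell and 36.6% rose. The outer membrane channel VDAC1 fell by 0.94 (SE 0.03) and MPC1 of the pyruvate carrier by 0.81 (SE 0.09), and the ADP/ATP carrier SLC25A6 rose by 0.34 (SE 0.03). Of 10 tested genes at the gate between pyruvate, lactate and mitochondria or of the hypoxia response, 6 fell and 4 rose. The lactate dehydrogenases LDHA and LDHB fell by 1.17 (SE 0.03) and 0.93 (SE 0.02). PDK2, a kinase that restrains pyruvate dehydrogenase, rose by 0.69 (SE 0.05). PDK1, PDK3 and PDK4, kinases of the same family, averaged under 10 TPM and were not tested. PDK1 was at 15.8 ± 2.65 TPM in UT and 5.78 ± 1.81 TPM in E, and PDK3 at 6.33 ± 0.818 TPM in UT and 3.04 ± 0.717 TPM in E (SD, 10 lines). PDK4 was at 0.230 ± 0.0941 TPM in UT and 1.30 ± 0.344 TPM in E. EGLN3, an oxygen-sensing prolyl hydroxylase, rose by 1.41 (SE 0.09).

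From E to EA, 6 of the 171 tested genes of these lists passed the test, and all 6 were higher in EA, where 2.02% of all genes were called higher and 0.509% lower. They were UQCC1, TFAM, IDH3A, MRPL42, SLC25A5 and LDHA, chosen for naming after their values were seen. UQCC1 and IDH3A lay closest to the threshold (limma adjusted p = 0.046 and 0.043). The shares of all genes depended on the processing, as given above. TFAM differed by 0.23 (SE 0.04, limma adjusted p = 0.022) and LDHA by 0.20 (SE 0.03, adjusted p = 0.010), both in 8 of 8 lines, and the differences ran from 0.16 for SLC25A5 to 0.30 for MRPL42. The same genes had fallen from UT to E, in a comparison that shares the E libraries. LDHA was at 1122 ± 50.2 TPM in UT, 497 ± 33.9 TPM in E and 574 ± 33.9 TPM in EA (SD over 10, 10 and 9 lines).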

How the data were processed

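The deposited values are TPM for each transcript in each library, and the submitters' processing notes name kallisto and GRCh38, with no version of kallisto. The strand handling and annotation are not given in the sources used here. Transcripts were matched to GENCODE release 29. Of 188753 transcripts, 169797 lay on the primary assembly, 15315 were copies on alternate loci and were added to their gene by symbol, and 3641 were not matched. Without the copies NDUFA6 would fall below the filter. All 29 libraries were used and none was pooled.

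The filter kept genes that averaged 10 TPM or more. log2(TPM + 1), which understates changes of low genes, was fitted with limma 3.58.1 in R 4.3.3 (lmFit, eBayes with trend), blocking on the line and adjusting p over all genes by Benjamini-Hochberg, at 0.05. The line pairs the libraries, since the libraries of a line come from the same cell line. The lines of a comparison carry different AXL inserts. The fits of UT against E and of E against EA were tested on simulated data with independent noise for each gene, whereas real members move together. With no change simulated, 0 genes were called in either. With 200 genes changed by 0.5 on the log2 scale, the UT to E fit called 183 of them and 11 unchanged genes. The E to EA fit called 177 of them and 18 unchanged genes. Python 3.11.15, pandas 2.3.3, numpy 2.4.6, scipy 1.17.1 and matplotlib 3.10.9 were also used.

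Named members were the 6 largest rises and 6 largest falls in every line, a list fixed by role, the 3 most and 3 least abundant, 5 with PAR outside the other lines, readthroughs and copies, and 3 most like the mean of the rest. NDUFA1, NDUFAB1 and members given by symbol only were chosen after their values were seen. Members and lists were chosen with earlier results of these data known. One item that the rule selects is not reported here. No protein sequence was used.

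Alternatives were a pseudocount of 0.1, other filters, centred medians, quantile normalization, mitochondrial genes left out, protein-coding transcripts alone, no block, the KD pair included and each line left out. The primary assembly alone and the split by transcript length were chosen after seeing the data.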

Additional observations from a re-analysis of the deposited data

Results flagged for a closer look

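In 24 of 132 groups of libraries examined, 1 line stood apart from the rest of its treatment by Dixon's gap test, and chance flags about 1 group in 20. Of these, 6 came from the 15 groups of the 5 members named because PAR lay outside the other lines, so they were chosen for this pattern, and 18 came from the other 117. Many groups share libraries and members move together, so the count is not a test. The line was PAR in all 24, which is the only line without the AXL knockout, so its values are also those of a different genotype. No explanation was tested.

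In UT, PAR was lowest in ATP5F1A (170 TPM), ATP5F1B (457 TPM), ATP5MC2 (191 TPM), ATP5PD (327 TPM), COX7A2 (210 TPM), NDUFAF8 (120 TPM) and NDUFS5 (629 TPM). In E it was lowest in ATP5F1B (330.3 TPM), ATP5PD (334 TPM), COX5B (376 TPM), NDUFA8 (105 TPM), NDUFAF8 (73.6 TPM), NDUFS5 (727 TPM), SDHA (148 TPM) and UQCRH (524 TPM). In E it was highest in ATP5MF (915 TPM), NDUFA4 (61.7 TPM) and SDHB (75.3 TPM). In EA it was highest in NDUFA4 (68.7 TPM), NDUFAF6 (15.7 TPM) and SDHB (94.9 TPM), and lowest in NDUFB6 (21.1 TPM). The members' share of all TPM in E was lowest in PAR, at 1.66%. Its mitochondrially encoded share in E was 17.4%.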

How the results depend on the processing

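From UT to E, every alternative run kept the counts within 1.5 times of 14 higher and 55 lower, and leaving out 1 line gave 13 to 15 higher and 54 to 58 lower. Over all genes, 3378 were called higher and 3933 lower from UT to E, which gives the shares printed above. With centred medians these counts over all genes were 3718 and 3593, and with quantile normalization 3682 and 3666. From E to EA, the count of members stayed at 0 except for 1 higher member (SDHB) with mitochondrial genes left out and 1 lower member without Y726F. Leaving out lines thus gave 0 to 1 lower. With 1 line left out the members' median ran from -0.05 to -0.01. From UT to EA, leaving out lines gave 3 to 4 higher and 47 to 56 lower. Quantile normalization gave 8 higher there, beside 3277 of all 9241 genes. The median difference of PAR from the other lines was -0.11 over all treatments and -0.22 in UT alone, with the cause not tested. Among named members, 17 of 683 values with 1 line left out and 22 under the other alternatives lost their call, mostly of SDHD, ATP5MF and COX7A2L, 1 gained it and none changed direction. Some of these values belong to members without a call from E to EA, which had none to lose. Without the line as a block, 11 members were higher and 53 lower from UT to E. TPM hides depth, so the counting error of low members such as NDUFAF6 is not known.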
